A study of Rattus norvegicus with 12 samples.

Results

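A set of 4 genes that mark epithelial or mesenchymal state, *Cdh1*, *Cdh2*, *Epcam* and *Vim*, was followed across 12 RNA-seq libraries of 2 rat kidney cell lines. They were taken by Ensembl identifier (ENSRNOG00000020151, ENSRNOG00000015602, ENSRNOG00000015667 and ENSRNOG00000018087, in that order), and all 4 were among the 21698 genes of the counts table. NRK-52E is an established tubule-like epithelial line and NRK-49F an established fibroblast line, both from kidney. NRK-52E had received vehicle or cisplatin, a platinum drug that crosslinks DNA, at 40 µM. The protocols give 50% confluence for NRK-52E, with 6 h of exposure and 24 h in fresh medium, and no confluence for NRK-49F. The design text instead gives 24 h of treatment. That is the only density recorded, and none is given at harvest. Whether the 2 NRK-52E groups were alike in density at harvest is thus not known. Its part in the levels of adhesion genes was not tested. NRK-49F had been cultured for 24 h in medium conditioned by NRK-52E, either untreated (untreated medium) or treated with 40 µM cisplatin (cisplatin medium). Each of these 4 groups held 3 libraries, and both lines were grown in 5% serum. Each line stands for itself only, and the labels name no genetic change in either. Nothing in the labels ties the libraries of a group to separate cultures. The p-values therefore reflect the spread among these libraries alone, and that spread may be technical.

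As background, cadherins are calcium-dependent adhesion proteins that join like cells and link through catenins to the actin cytoskeleton. *Cdh1* encodes E-cadherin of epithelial adherens junctions and *Cdh2* N-cadherin, which is typical of mesenchymal and neural cells and is also made by proximal tubule cells. *Epcam* encodes an adhesion molecule of the epithelial surface, and *Vim* encodes vimentin, the intermediate filament protein of mesenchymal cells, which cultured epithelial cells often make as well. Loss of *Cdh1* with gain of *Cdh2* and *Vim* is the textbook pattern of an epithelial cell moving to a mesenchymal state, which is why the 4 are read together.

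The sequences at hand for these genes were the start regions of *Epcam* and *Vim*, the least and the most counted member. They come from a table of RefSeq start regions (GRCr8), in which only 2 of the 4 members were matched by symbol. No entry was found under *Cdh1* or *Cdh2*, so their start regions could not be shown. Each runs from 250 bases before to 50 bases after the annotated start, on the strand of the gene, and capitals mark matches, on either strand, to the E-box CAGGTG, to TATAAA or to CCAAT, which do not overlap one another here. *Epcam* lies on the minus strand at chr6:12649629-12649928 and *Vim* on the plus strand at chr17:81577011-81577310.
Epcam: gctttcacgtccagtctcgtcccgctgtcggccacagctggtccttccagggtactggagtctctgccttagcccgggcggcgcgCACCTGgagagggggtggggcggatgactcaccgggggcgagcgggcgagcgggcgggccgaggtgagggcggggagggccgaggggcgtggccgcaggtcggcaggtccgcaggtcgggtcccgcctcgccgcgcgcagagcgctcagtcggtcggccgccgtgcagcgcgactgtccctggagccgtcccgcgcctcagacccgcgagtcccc
Vim: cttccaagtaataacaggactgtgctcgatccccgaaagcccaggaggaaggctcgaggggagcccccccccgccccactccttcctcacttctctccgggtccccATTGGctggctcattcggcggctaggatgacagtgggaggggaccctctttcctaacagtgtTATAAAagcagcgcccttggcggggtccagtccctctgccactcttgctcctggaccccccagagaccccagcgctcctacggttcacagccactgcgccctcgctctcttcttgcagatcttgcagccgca
The *Epcam* region held 1 E-box, read as CACCTG, whose first base lay 165 bases upstream of the start, and neither of the other motifs. An E-box of these letters is the sequence bound by Snail and ZEB repressors of epithelial genes. It occurred in 18.8% of 33469 rat start regions of the same length, so the match is a common one. The *Vim* region held a CCAAT match, read as ATTGG, 144 bases upstream (37.5% of all start regions hold one) and a TATAAA match 82 bases upstream (14.2% of all), and no E-box of these letters. The GC content was 75.7% for *Epcam* and 62.0% for *Vim*, against a median of 51.7%. The files measure RNA and not binding, so these matches are descriptions only.

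Total counts were 9684887 to 12549675 per library. Levels are given as CPM, counts scaled to library sizes that were adjusted by TMM (trimmed mean of M values, which sets the bulk of genes to no change), with factors over the 12 libraries of 0.808 to 1.165. A floor of 3 counts in 1 library equalled 0.211 to 0.357 CPM and covers counting error only. Transcript lengths were not used, so levels are compared between groups for one gene and not between genes.

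The epithelial markers were scarce in the line labelled epithelial. *Epcam* had 0 counts in each of the 3 NRK-52E vehicle libraries, which allows a level of up to 0.0742 CPM over the group (3 counts over the 3 libraries together). *Cdh1* was detected there in every library, with 36, 38 and 43 counts, or 2.698, 2.94 and 3.03 CPM. The mesenchymal marker was present in that line too: *Vim* had 29427, 27344 and 29378 counts, or 2205, 2117 and 2069 CPM. *Cdh2* had 54, 55 and 40 counts, or 4.05, 4.26 and 2.82 CPM. Vehicle-treated NRK-52E thus held *Cdh1*, *Cdh2* and *Vim* RNA together, and of the 2 epithelial members only *Cdh1* was seen.

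**Figure D1:**
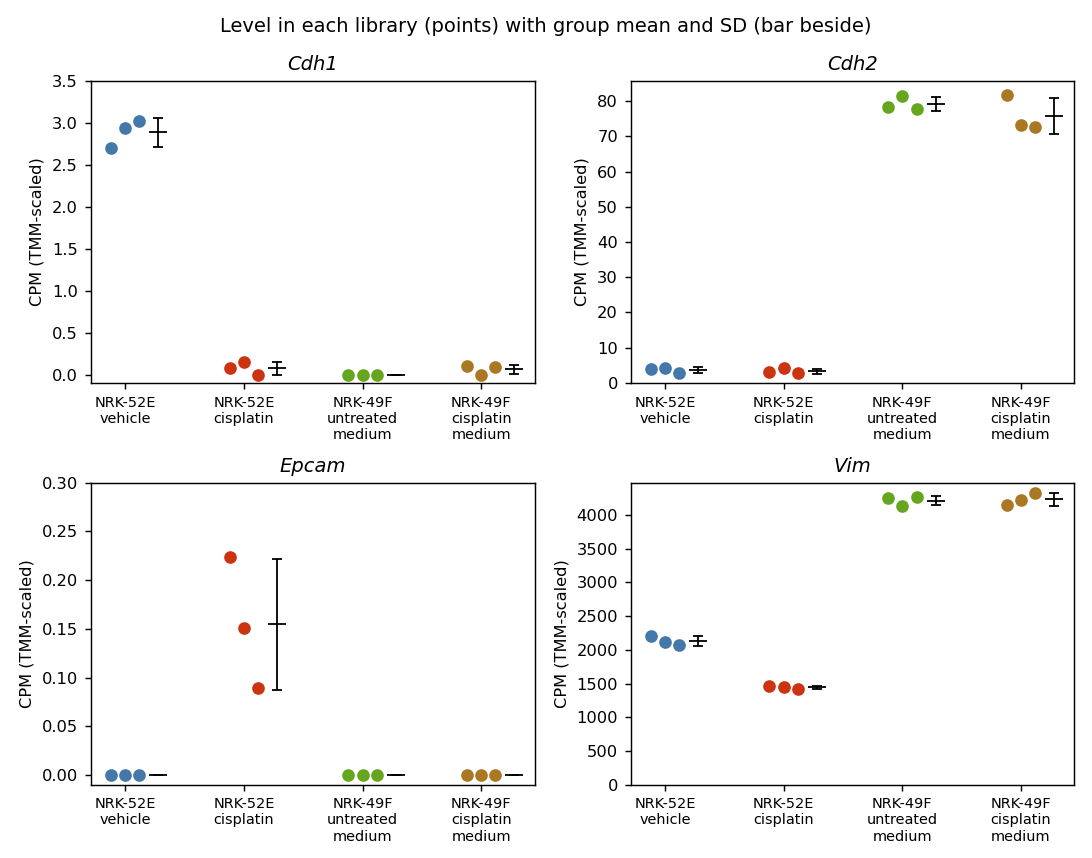
Level of each gene in each of the 12 libraries (points; vertical axes in TMM-scaled CPM, 1 scale per gene), with the mean and SD of each group of 3 beside them. *Cdh1* stands at 2.698 to 3.03 CPM in NRK-52E vehicle and at 0.150 CPM or less in every other library, and *Cdh2* and *Vim* are higher in both NRK-49F groups than in both NRK-52E groups.

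In NRK-49F neither epithelial member was seen above 1 count per library. *Cdh1* had 0 counts in all 3 libraries in untreated medium and 1, 0 and 1 counts in cisplatin medium, and *Epcam* had 0 counts in all 6. *Cdh2* had 770, 684 and 719 counts in untreated medium, or 78.4, 81.4 and 77.7 CPM. *Vim* had 41739, 34739 and 39417 counts, or 4249, 4132 and 4261 CPM. For both *Cdh2* and *Vim*, each NRK-49F library lay above each NRK-52E library.

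NRK-52E vehicle was then set against NRK-49F in untreated medium, a comparison in which the line and the medium differ together. All 12 libraries were fitted together with edgeR's quasi-likelihood test, with Benjamini-Hochberg adjustment over 13127 genes and a threshold of 0.05. All 3 members tested passed, in a comparison where 81.7% of all genes did. *Cdh2* was 21.4-fold lower in NRK-52E, a log2 difference of -4.42, standard error 0.10 (edgeR adjusted p = 9.97e-37), and 4.54% of all genes had a difference as low or lower. *Vim* was 1.98-fold lower in NRK-52E, a log2 difference of -0.98, standard error 0.04 (edgeR adjusted p = 2.06e-28). The size of the *Vim* difference depends on the scaling: with library size only it was -0.49, while the median of all genes moved from 0.03 to 0.52. Relative to that median, the *Vim* difference was -1.01 under both. *Cdh1* was higher in NRK-52E (edgeR adjusted p = 2.74e-12), although it passed the filter on low counts through the vehicle libraries alone, which all but fixes this result. From counts pooled over each group, 117 against 0, it was at least 26.5-fold higher, with 3 counts over the NRK-49F group as the floor. *Epcam*, at 0 counts in both groups, was not tested, and no difference was detectable at this depth.

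*Cdh1* fell in NRK-52E with cisplatin, to counts like those of the fibroblasts. Its counts were 1, 2 and 0 in the cisplatin libraries against 36, 38 and 43 with vehicle, and its level went from 2.89 ± 0.171 to 0.0750 ± 0.0752 CPM (SD, n = 3 each). The groups did not overlap. The log2 fold change was -5.05, standard error 0.48 (edgeR adjusted p = 1.09e-11, fit of the 6 NRK-52E libraries). Here too it passed the filter only through the vehicle libraries, so the pass is no separate support. The fitted value leans on a small prior count, and without cisplatin replicate 2, the library with 2 counts, it was -5.87. Pooled counts, 117 against 3, gave a ratio of 36.5 with an exact 95% binomial interval of 12.2 to 180, which covers counting error only. Since the RNA came from whole cultures, fewer cells with *Cdh1* and less *Cdh1* RNA per cell cannot be told apart.

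Among the 12508 genes tested in NRK-52E, the fitted log2 fold change of *Cdh1* was at the lower end. Its place is a description only, since a fold near 0 counts is set in part by the prior count. In each setting that tested these 12508 genes it was the lowest. Where the set of genes differed, its place from the bottom reached 7 among 20900 genes with no filter on low counts. It was 4 among 12763 genes without cisplatin replicate 1. After cisplatin, the pooled *Cdh1* level in NRK-52E was 0.0792 CPM (exact 95% Poisson interval 0.0163 to 0.231), and that in NRK-49F with cisplatin medium, from 2 counts, was 0.0608 CPM (0.00736 to 0.220). The ratio of these levels was 1.30 with an interval of 0.149 to 15.6, so counts this low do not tell them apart.

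No rise was called for the mesenchymal members in the libraries in which *Cdh1* fell. Of 3 members tested in NRK-52E, 2 passed, both lower, where 76.2% of all genes passed and 37.6% were lower. *Vim* had 19577, 19280 and 15965 counts with cisplatin, or 1463, 1449 and 1424 CPM, and each of these lay below each vehicle library. *Vim* fell 1.49-fold, or by a log2 value of -0.58, standard error 0.04 (edgeR adjusted p = 1.51e-15). In a test against a 1.5-fold change it did not pass (edgeR adjusted p = 0.764). The fitted fall of 1.49-fold lies under 1.5-fold, so that test could not pass, whatever the spread. Of all genes tested, 18.6% fell as much or more.

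*Cdh2* had 40, 55 and 33 counts with cisplatin, or 2.99, 4.13 and 2.94 CPM, and these overlapped the vehicle libraries. Its log2 fold change was -0.14, standard error 0.21, which did not pass the test (edgeR adjusted p = 0.535). The pooled counts, 149 with vehicle and 128 with cisplatin, gave a ratio of vehicle to cisplatin of 1.09 with an exact 95% binomial interval of 0.855 to 1.39, for counting error only. Changes within that interval cannot be told from no change. The interval leaves out the spread among libraries, so somewhat larger changes may have been missed as well.

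*Epcam* appeared in the cisplatin libraries at trace level. It had 3, 2 and 1 counts there, 0.224, 0.150 and 0.0892 CPM, against 0 in every vehicle library. Pooled over the group, 6 counts gave 0.158 CPM (exact 95% Poisson interval 0.0581 to 0.345). This interval includes the 0.0742 CPM that 0 counts allow with vehicle, but such an overlap is no test of the difference. With 3 counts over the vehicle group as the floor, the pooled level was 2.1-fold higher with cisplatin. That ratio leaves out the counting error of the 6 counts. No single library was above 3 counts, and the gene did not pass the filter on low counts, so it was not tested. Without that filter edgeR gave an adjusted p of 0.0444, and DESeq2 gave an adjusted p of 0.142.

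**Figure D2:**
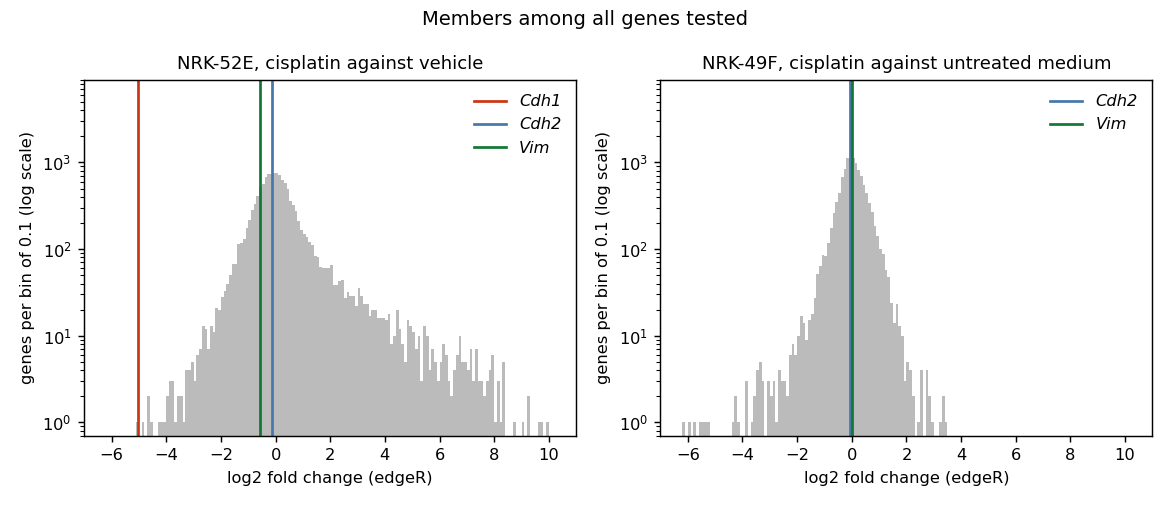
Log2 fold changes of all genes tested in each line (grey, genes per bin of 0.1 on a log scale), with vertical lines at the members. In NRK-52E *Cdh1* lies at the lower end at -5.05, while *Vim* at -0.58 and *Cdh2* at -0.14 lie within the bulk; in NRK-49F *Cdh2* and *Vim* lie at the centre.

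Ratios of 2 genes within a library do not depend on how libraries are scaled. Each is the log2 of the ratio of counts with 0.5 added to both, so its level reflects transcript length too and only its change between groups is read. *Cdh1* to *Cdh2* was -0.58, -0.53 and 0.10 with vehicle and -4.75, -4.47 and -6.07 with cisplatin, a difference of -4.76. *Cdh1* to *Vim* differed by -4.34, from a mean of -9.51 ± 0.132 to -13.8 ± 1.04 (SD, n = 3 each). Because *Cdh1* had so few counts with cisplatin, the size of both differences leans on the offset. With 1 count added instead of 0.5, they were -4.23 and -3.80, respectively. Without cisplatin replicate 3 and with 0.5 added, they were -4.28 and -3.78. For both ratios the groups did not overlap, and an exact permutation test (two-sided) gave p = 0.1, the smallest value that 3 libraries against 3 allow. The ratio of *Cdh2* to *Vim*, added after the counts were seen, was higher with cisplatin in NRK-52E by 0.42 (means -8.75 ± 0.270 and -9.17 ± 0.292, SD, n = 3 each, exact permutation p = 0.1). The cisplatin libraries lay at -8.92, -8.44 and -8.90 and the vehicle libraries at -9.08, -8.94 and -9.50, so the groups were separated by a gap smaller than the spread within either.

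**Figure D3:**
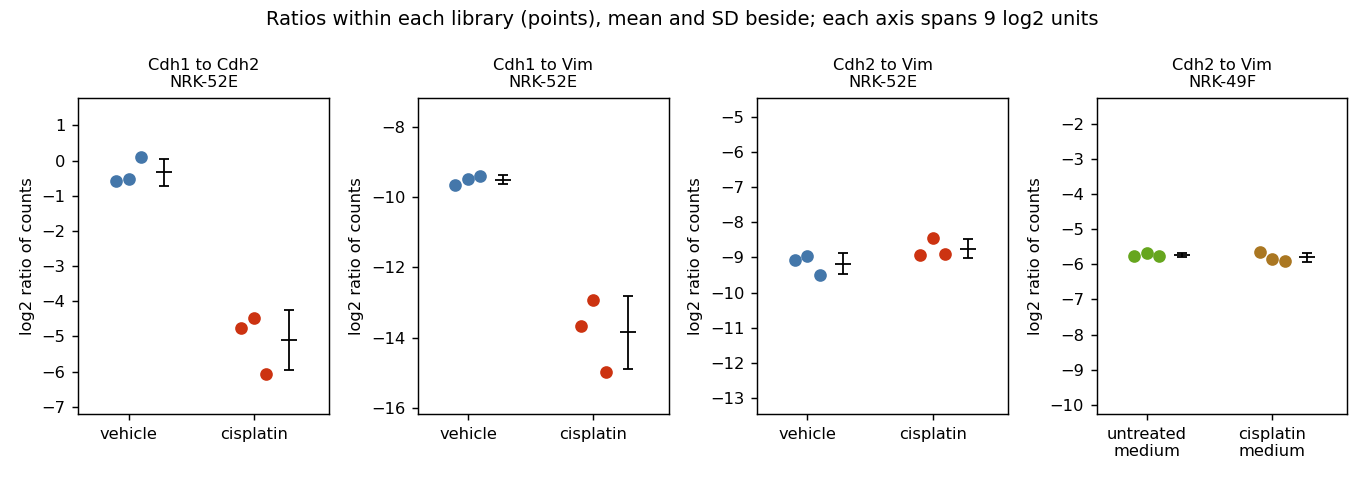
Log2 ratio of counts of 2 genes within each library (points), with the mean and SD of each group of 3 beside them; every vertical axis spans 9 log2 units. With the offset of 0.5 counts, both mean ratios with *Cdh1* lie more than 4 units lower with cisplatin in NRK-52E, a size that depends on the offset. *Cdh2* to *Vim* moves by 0.42 in NRK-52E and by -0.07 in NRK-49F.

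The second comparison addressed the paracrine question of the study, namely what medium from cisplatin-treated epithelial cells did to the fibroblasts. For these markers no change was called. Of the 4 members, 2 could be tested in NRK-49F, and 0 passed, where 61.8% of 11525 genes did; 0 had an unadjusted p under 0.05 in edgeR, and 0 passed in DESeq2. *Cdh2* had 818, 818 and 851 counts in cisplatin medium, or 81.7, 73.3 and 72.6 CPM, which overlapped the untreated-medium libraries. Its log2 fold change was -0.06, standard error 0.06 (edgeR adjusted p = 0.359). *Vim* had 41468, 47214 and 50821 counts, or 4143, 4230 and 4333 CPM, which also overlapped. Its log2 fold change was 0.01, standard error 0.03 (edgeR adjusted p = 0.805).

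These near-zero values are relative to the bulk of fibroblast genes, as TMM sets it. With library size as the only scaling, *Cdh2* was higher by 0.14 (edgeR adjusted p = 0.0272) and *Vim* by 0.21 (edgeR adjusted p = 1.06e-06) in cisplatin medium. The median of all genes moved from 0.02 to 0.22 at the same time. Relative to that median, *Cdh2* was at -0.08 and *Vim* at -0.01 under both scalings. The *Cdh2* to *Vim* ratio within libraries differed by -0.07 between the media, with overlapping groups (exact two-sided permutation p = 0.5). *Cdh1*, at 0 and 2 counts over the groups, and *Epcam*, at 0 counts in both, were not tested.

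**Figure D4:**
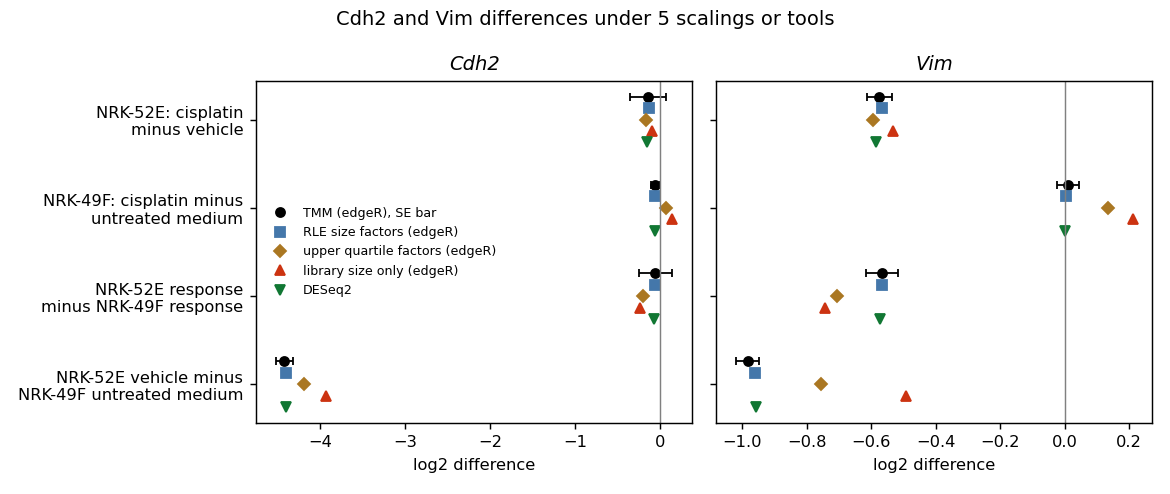
Log2 differences of *Cdh2* and *Vim* (horizontal axes) in the 4 comparisons under TMM with its standard error, 3 other scalings in edgeR, and DESeq2. In NRK-49F the *Cdh2* difference changes sign with upper quartile factors (0.065) and with library size only (0.14), and *Vim* spans 0.0015 to 0.21, whereas the fall of *Vim* in NRK-52E stays between -0.53 and -0.60 in the settings plotted.

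The responses of the 2 lines were compared directly in the fit of all 12 libraries, in which the lines received different agents, so line and agent cannot be told apart. Of 3 members tested, 2 passed, where 66.5% of 13127 genes did, and 1 of these, *Cdh1*, passed the filter on low counts only through NRK-52E vehicle, so its pass is no support. For *Vim* the NRK-52E response was lower than the NRK-49F response by a log2 difference of -0.57, standard error 0.05 (edgeR adjusted p = 1.08e-13). In a test against a 1.5-fold difference it did not pass (edgeR adjusted p = 0.680), and could not, as the fitted difference was 1.48-fold. For *Cdh1* the fitted difference was -7.74 in edgeR (adjusted p = 0.00266) and -6.80 in DESeq2 (adjusted p = 0.000813). Its size is not interpretable, as NRK-49F held 0 and 2 counts over its groups and no response could be measured there. For *Cdh2* the difference was -0.06, standard error 0.19 (edgeR adjusted p = 0.807).

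By level, the 4 groups ranked as follows. For *Vim*, NRK-49F in cisplatin medium (4235 ± 95.1 CPM) and in untreated medium (4214 ± 71.5 CPM) did not differ beyond their spread, NRK-52E vehicle came next (2130.4 ± 69.2 CPM), and NRK-52E cisplatin was lowest (1445 ± 20.0 CPM; SD, n = 3 each). For *Cdh2*, untreated medium (79.2 ± 1.93 CPM) and cisplatin medium (75.9 ± 5.10 CPM) overlapped, as did NRK-52E vehicle (3.71 ± 0.778 CPM) and cisplatin (3.36 ± 0.675 CPM; SD, n = 3 each). For *Cdh1*, NRK-52E vehicle stood above the other 3 groups, which did not differ beyond their spread.

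Genes with the most similar pattern were sought among all genes with a mean of at least 1 CPM. The measure was the root mean square difference of log2 CPM (prior count of 2) over the 12 libraries, each gene centred on its mean. Distances for genes with few or no counts in some groups, as for *Cdh1*, depend in part on that prior count. Genes are given by Ensembl identifier because no table paired other identifiers with names. For *Cdh1* the closest of 12051 genes was ENSRNOG00000021261, at a distance of 0.487 where the median gene lay at 1.76. Its level was 4.86 ± 0.496 CPM with vehicle and 0.438 ± 0.239 CPM with cisplatin in NRK-52E, and 0.219 ± 0.0173 and 0.362 ± 0.0634 CPM in NRK-49F (SD, n = 3 each). For *Vim* the closest of 12050 genes was ENSRNOG00000013577, at a distance of 0.0466 against a median of 0.794. It stood at 120.8 and 83.9 CPM in NRK-52E and at 235 and 232 CPM in NRK-49F, so that, like *Vim*, it was higher in both NRK-49F groups and lowest in NRK-52E with cisplatin. For *Cdh2* it was ENSRNOG00000063062, at 0.214 against a median of 2.23, which had no counts in NRK-52E and means of 3.58 and 2.90 CPM in NRK-49F. *Cdh2* itself was counted in every NRK-52E library, so the closeness of these 2 genes rests in part on the prior count. Genes sharing a line difference share a pattern of this kind, and these distances are descriptions.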

How the data were processed

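The deposited table holds raw counts of reads for each rat gene, under Ensembl identifiers, in 12 columns headed by the sample titles. Per the submitters' processing notes, STAR 2.7.10a, featureCounts and Subread were used, with no role stated for any. The build, annotation and strand setting were not given in the sources used here, so reads of overlapping or antisense genes may have been counted together. Libraries were made with a stranded mRNA kit, per the labels' protocols. For NRK-52E those protocols give 6 h of exposure and 24 h in fresh medium. The design text of the series instead gives 24 h of treatment.

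Each line was fitted apart in edgeR 4.0.16 (R 4.3.3): low counts were removed with filterByExpr (at least 10 counts, total of at least 15), scaling was by TMM, and glmQLFit and glmQLFTest were used with Benjamini-Hochberg adjustment over all genes tested at 0.05. Line differences and the difference of responses used one fit of all 12 libraries. Standard errors were derived from the log2 fold change and its F statistic. Within-library ratios were tested by exact two-sided permutation. DESeq2 1.42.0 and other scalings, filters and left-out libraries were alternatives. The fits were tested on simulated counts. Each library counted as 1 sample. Libraries of a group differed by more than sampling noise (chi-square per degree of freedom 1.67 to 3.84), which does not show that they came from separate cultures.

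The members, lists and tests were chosen with earlier results of these data known. The named genes were the 4 members and, per member, the gene of closest pattern. Marker and junction gene lists were not run, since the RefSeq table pairs none of the table's identifiers with symbols, and the names of the 4 members came with their identifiers. Ratios with *Epcam*, and with *Cdh1* in NRK-49F, were left out because their counts were at or under 3 in every library.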

Additional observations from a re-analysis of the deposited data

Results flagged for a closer look

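The difference of responses between the lines passed its own test for *Vim* and *Cdh1*, and they are listed for that reason. The *Vim* response was lower in NRK-52E than in NRK-49F by a log2 difference of -0.57 (edgeR adjusted p = 1.08e-13), with *Vim* lower in 3 of 3 cisplatin libraries of NRK-52E than in any vehicle library. The *Cdh1* difference was -7.74 (edgeR adjusted p = 0.00266), but the gene passed the filter on low counts only through NRK-52E vehicle and NRK-49F held only 2 counts, both in cisplatin medium, so this pass is no support for a difference of responses. Groups of 3 libraries are too small for a search for single deviating libraries.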

How the results depend on the processing

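Of 187 alternative values of the edgeR and DESeq2 results, 175 kept their direction and side of the threshold, and all 30 alternative values of the ratios kept their direction. The 175 include every alternative value of *Cdh1*. That gene passed the filter on low counts only through NRK-52E vehicle, which all but fixes those outcomes, so they add no support. In NRK-49F, *Cdh2* turned from -0.06 to 0.14 with library size only (edgeR adjusted p = 0.0272) and to 0.065 with upper quartile factors (edgeR adjusted p = 0.314), and *Vim* passed the test at 0.21 (edgeR adjusted p = 1.06e-06) and 0.14 (edgeR adjusted p = 0.000641), respectively; these scalings move the median of all genes. In the test against a 1.5-fold change *Vim* no longer passed, at -0.58 in NRK-52E (edgeR adjusted p = 0.764) and -0.57 for the difference of responses (edgeR adjusted p = 0.680). Both fitted values lie under 1.5-fold, so neither could pass there. Leaving out 1 library at a time gave -0.0065 to 0.025 for *Vim* in NRK-49F, below 0 without untreated-medium replicate 2 or cisplatin-medium replicate 3, and -0.25 to 0.039 for the *Cdh2* difference of responses, above 0 without vehicle replicate 1 or 2 or NRK-52E cisplatin replicate 1 or 3; none of these passed. For *Cdh1* in NRK-52E the range was -5.87 to -4.59 and for *Vim* -0.61 to -0.56, and both passed each time. The *Cdh1* passes are no separate support, since the gene passed the filter on low counts only through the vehicle libraries. Its value was lowest without cisplatin replicate 2, as was its difference of responses, at -8.53.

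With the replicate number as a block, the values in NRK-52E were -5.05 for *Cdh1*, -0.16 for *Cdh2* and -0.58 for *Vim*, and no call on a member changed in any comparison. Deviations of same-numbered libraries correlated at -0.051 to 0.037. Between NRK-52E cisplatin and NRK-49F cisplatin medium, the same number was the best match for replicates 1, 2 and 3 (0.037, 0.019 and 0.029). In the remaining pairs of groups this held only for replicate 3 of NRK-49F. Correlations this small, with 3 libraries per group, cannot decide whether same-numbered libraries were paired. Over all genes the block moved the calls from 9536 to 9382 in NRK-52E and from 7123 to 7020 in NRK-49F. The test against 1.5-fold left 3883 of 9536 calls in NRK-52E, 1184 of 7123 in NRK-49F, 4512 of 8724 for the difference of responses and 6709 of 10729 between the lines. With library size only, 75.4% of NRK-49F calls were higher instead of 49.9%, 68.9% instead of 50.0% between the lines, and 40.9% instead of 51.0% for the difference of responses; upper quartile factors gave 66.9% in NRK-49F. Depth limits *Epcam* and, outside NRK-52E vehicle, *Cdh1*, which had 3 or fewer counts per library.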
